A study of Mus musculus with 2 samples.

Results

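Branched-chain amino acid breakdown was followed through 8 genes: the aminotransferases Bcat1 and Bcat2, the subunits Bckdha, Bckdhb and Dbt of the branched-chain keto acid dehydrogenase, its kinase Bckdk, and the subunits Mccc1 and Mccc2 of methylcrotonyl-CoA carboxylase. They were taken by name, out of 9688 genes that could be named from the length and spacing of spliced introns, and the set was put together with the level of Bcat1 in these libraries already known. The differences between libraries are therefore given as descriptions. The cells were CD4+ T cells enriched with magnetic beads from the pooled spleens of 4 male mice of the strain C57BL/6JJcl. They were kept for 4 h on plates coated with antibodies to CD3e and CD28 at 2 ug/ml each (the stimulated library), or were handled alike with no antibody (the mock library). The antibodies engage the T cell receptor complex and its costimulatory receptor, and the title of the series names the early events of activation as its subject. With 1 library per group there was no replicate check, so every difference below is one between these libraries, and no p-value was computed. The mock library held 1147232 reads across splice junctions and the stimulated library 1341197. T cell markers were abundant, with all 10 listed genes read and 5793 mock and 6113 stimulated reads in sum.

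Leucine, isoleucine and valine are broken down by a shared opening route. An aminotransferase moves the amino group to 2-oxoglutarate, in the cytosol by the product of Bcat1 and in mitochondria by that of Bcat2. The mitochondrial dehydrogenase then removes a carboxyl group in an irreversible step, which the kinase Bckdk shuts off by phosphorylating the E1 alpha subunit. Leucine carbon goes on through methylcrotonyl-CoA carboxylase, a biotin enzyme. In T cells leucine also feeds protein synthesis and the growth signal through mTOR, and activated T cells are known to take up more of it.

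The Bcat1 reads that entered exon 2 came from a single annotated first exon, so the sequences at that choice are shown. Bcat1 lies on the minus strand of chromosome 6, and its named introns span chr6:144948825-145024408 in mm9. The annotation has a far start, which gives an exon with 6 coding bases ahead of a 28525 bp intron (transcripts Bcat1-202 and Bcat1-203), and a near start, which gives an exon with 207 coding bases ahead of a 1199 bp intron (Bcat1-201). Both exons join the same exon 2. The coding transcripts Bcat1-204 and Bcat1-207 have other first introns, of 76 and 7804 bp, with no read in either library. The lines give the last 20 bases of each exon in lower case and the first 20 of exon 2 in capitals, from the GENCODE transcripts.
Bcat1-203, far start: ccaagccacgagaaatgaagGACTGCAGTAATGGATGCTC
Bcat1-201, near start: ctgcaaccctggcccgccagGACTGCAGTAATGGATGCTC
The far junction had 1 mock read and 32 stimulated reads. No other junction entered exon 2 in either library. At this depth 0 of 32 stimulated reads allows a share of up to 10.9% for other exons joined to exon 2 (exact 95% interval, counting error only). A start inside or after exon 2 would not show at this junction, and intron 2 had 68 stimulated reads. Annotated coding length was 1158 bases for Bcat1-203 and 1359 for Bcat1-201.

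The 250 bases before each RefSeq start site, the used and the unread one, are given on GRCm38.p6, another build than the mm9 of the junctions. The RefSeq site of the far start lay 27 bases from the GENCODE start of Bcat1-203, and that of the near start coincided with the start of Bcat1-201.
Far start, chr6:145076158-145076407, minus strand: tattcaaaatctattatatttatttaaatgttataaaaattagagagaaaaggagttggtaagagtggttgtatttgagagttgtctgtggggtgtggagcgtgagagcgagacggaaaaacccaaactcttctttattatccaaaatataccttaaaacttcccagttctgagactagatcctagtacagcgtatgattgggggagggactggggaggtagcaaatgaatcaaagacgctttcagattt
Near start, chr6:145048813-145049062, minus strand: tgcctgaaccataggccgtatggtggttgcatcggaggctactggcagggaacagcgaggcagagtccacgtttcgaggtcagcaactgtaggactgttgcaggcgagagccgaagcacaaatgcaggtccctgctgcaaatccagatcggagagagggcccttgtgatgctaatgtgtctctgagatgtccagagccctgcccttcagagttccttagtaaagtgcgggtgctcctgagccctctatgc
The sites are 27345 bases apart. Windows from 250 bases before to 50 after each start site were searched on both strands for the E-box CACGTG bound by Myc, the AP-1 site TGACTCA and the amino acid response motif TGATGNAA, and neither Bcat1 window held any of the 3. Among all 32851 RefSeq windows of this length, 7.15% held CACGTG, 5.20% TGACTCA and 3.97% TGATGNAA. Of 10 such windows found for 7 of the 8 genes, the only match was a CACGTG in the Mccc2 window, starting 9 bases before the start site. A match is a run of letters and not a bound site. Myc itself had 23 mock and 624 stimulated reads, a ratio of 23.2 (15.3 to 36.9).

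The most-read junction is shown for the aminotransferases, for the dehydrogenase subunits with enough reads and for the kinase, to place the counts that follow, with the exon after the junction in capitals.
Bcat1, exon 7 to 8: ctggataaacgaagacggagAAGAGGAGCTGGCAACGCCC
Bcat2, exon 1 to 2: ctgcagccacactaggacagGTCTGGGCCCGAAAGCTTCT
Bckdha, exon 7 to 8: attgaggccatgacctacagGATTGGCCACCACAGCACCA
Dbt, exon 5 to 6: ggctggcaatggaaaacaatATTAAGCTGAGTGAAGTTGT
Bckdk, exon 2 to 3: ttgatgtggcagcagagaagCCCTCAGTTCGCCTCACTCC
All 40 bases of each are annotated as coding. The counts on these junctions are given with their genes.

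Bcat1 was near the detection limit in resting cells and was the most read gene of the set after stimulation. It had 6 mock reads and 419 stimulated reads, or 5.23 (exact 95% Poisson interval 1.92 to 11.4) and 312 (283 to 344) per 1000000 junction reads. The stimulated level was 59.7 times the mock level, with an exact (Clopper-Pearson) 95% interval of 27.2 to 164. Here and below intervals hold the error of counting and no other, and amplified reads are not separate molecules. In bulk RNA, more cells with the transcript and more transcript per cell cannot be told apart. A gene is called higher or lower when it had at least 20 reads over both libraries, differed at least 2-fold and had an interval without 1. Of 7202 genes with enough reads, 17.1% were higher and 25.1% lower by that rule, and of the 7 measured members 1 was higher (Bcat1), 3 were lower (Bckdha, Bckdk and Mccc2) and 3 were neither. Nothing is read from these counts, because the set was chosen on this contrast. Bcat1 stood at rank 9 of the 7202 ratios. Genes with no mock read enter that order at a ratio set against 3 reads, so the true place of Bcat1 could be lower. Of all called genes 40.5% were higher, and 52.6% when library size was set by trimmed means (TMM), which moved every log2 ratio up by 0.24.

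**Figure D1:**
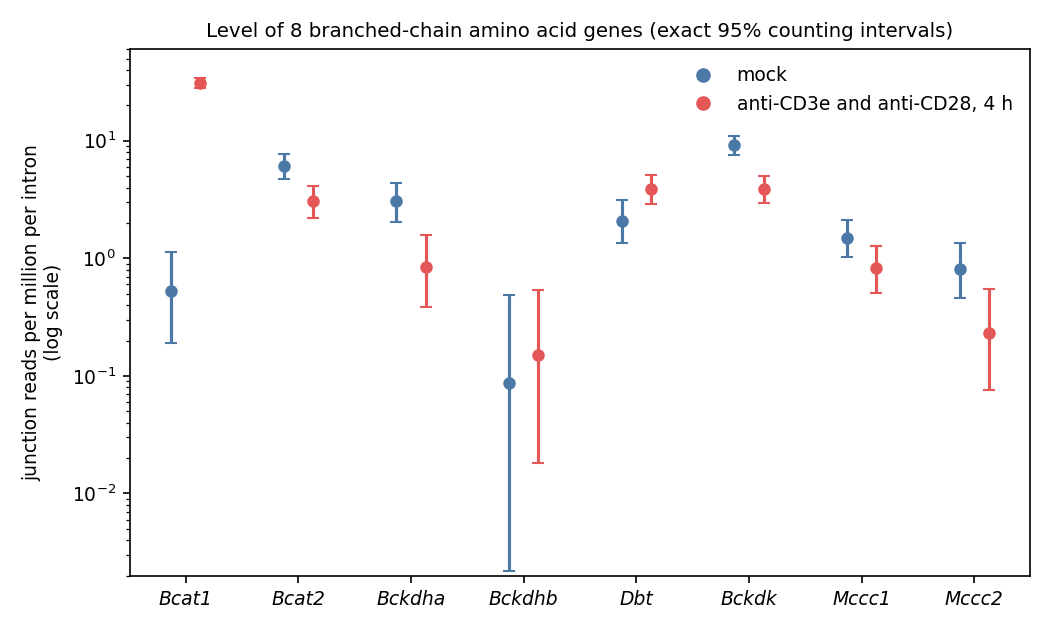
Junction reads per 1000000 (RPM) per annotated intron (log axis) for the 8 genes in the mock library (blue) and the stimulated library (red), with exact 95% Poisson intervals. Bcat1 moved from 0.523 to 31.2, from below 6 of the other 7 genes to above all of them, and its intervals lie far apart.

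Per intron, which allows genes of different length to be compared, the order of the genes turned over at its top. In the mock library Bckdk led at 9.11 reads per 1000000 junction reads (RPM) per intron (7.52 to 10.9), followed by Bcat2 at 6.10 (4.76 to 7.71), Bckdha at 3.05 (2.03 to 4.41) and Dbt at 2.09 (1.34 to 3.11). Mccc1 at 1.50 and Mccc2 at 0.817 came next, then Bcat1 at 0.523 (0.192 to 1.14) and Bckdhb at 0.0872. By counting error alone the intervals of Bcat2 and Bckdha did not meet. Those of Bckdk and Bcat2, Bckdha and Dbt, Dbt and Mccc1, Mccc1 and Mccc2, Mccc2 and Bcat1, and Bcat1 and Bckdhb overlapped. None of the level intervals was widened for the spread between junctions of a gene, which would bring neighbours closer. In the stimulated library Bcat1 stood at 31.2 (28.3 to 34.4), and Dbt (3.88), Bckdk (3.86) and Bcat2 (3.06) followed with intervals that overlapped one another and not that of Bcat1. Below a gap, Bckdha was at 0.839, Mccc1 at 0.828, Mccc2 at 0.233 and Bckdhb at 0.149, also with overlapping intervals between neighbours.

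The aminotransferase pair changed places. Bcat1 made up 7.89% (2.95 to 16.4) of the 76 mock reads of Bcat1 and Bcat2 together, and 91.1% (88.1 to 93.5) of their 460 stimulated reads. The transcripts counted have 10 introns each, so both genes are counted over the same number of introns. Over all 8 genes Bcat1 went from 2.07% of 290 reads to 69.3% of 605. Without Bcat1 the other 7 genes held 284 mock and 186 stimulated reads, a ratio of 0.560 (0.463 to 0.676).

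The rise of Bcat1 ran along the whole transcript. From intron 1 to intron 10 of Bcat1-203 the stimulated library had 32, 68, 14, 23, 14, 71, 90, 25, 45 and 36 reads, and the mock library had 1, 0, 0, 0, 0, 0, 1, 2, 2 and 0. All 10 introns were read after stimulation and 4 of 10 before it, and the stimulated count was above the mock count at each. The most-read junction, intron 7, went from 1 to 90 reads, a ratio of 77.0 (13.5 to 3074). Intron 1, which joins the far start to the coding exons, had a ratio of 27.4 (4.57 to 1115), intron 8 had 10.7 (2.67 to 93.1) and intron 9 had 19.2 (5.03 to 164). Where the mock library had no read the ratio was set against 3 reads per library. The lower end of the exact 95% interval, which can lie under that ratio, is given in brackets. Intron 6 was then 20.2-fold higher (16.0) and intron 2 19.4-fold (15.3). Introns 3 and 5, with 14 reads each, were 3.99-fold higher (2.84), intron 4 6.56-fold (4.92) and intron 10 10.3-fold (7.93). Stimulated reads differed between junctions of this gene by up to 6.43-fold, so single junctions are not equal gauges of the level. An 11th named junction, of the short transcript Bcat1-205, had 1 stimulated read.

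**Figure D2:**
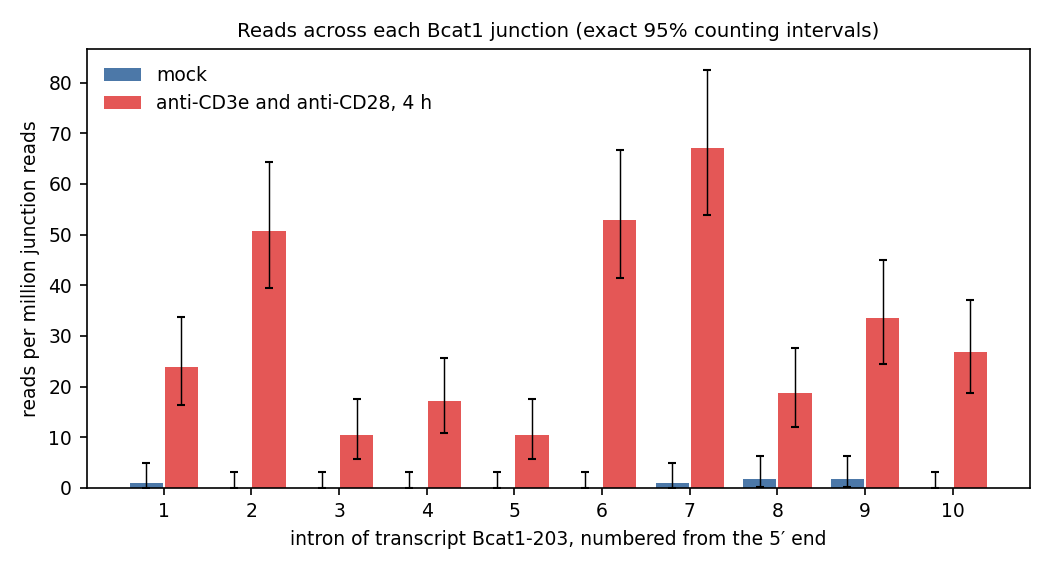
Reads per 1000000 junction reads (RPM) across the 10 introns of Bcat1-203, numbered from the 5′ end, in the mock library (blue) and the stimulated library (red), with exact 95% Poisson intervals. The stimulated bars run from 10.4 to 67.1 RPM and the mock bars stay at or below 1.74, with 6 of them at 0.

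Genes with a ratio like that of Bcat1 were sought among 2770 genes with at least 0.5 times its reads. With 2 libraries, likeness means only a near log2 ratio. Bcat1 had 5.90, and the nearest were the adaptor gene Sh3bp2 at 5.93, the SLAM family receptor gene Slamf7 at 5.63, the orphan nuclear receptor gene Nr4a2 at 5.59, the interferon regulatory factor gene Irf8 at 5.40 and the RNA methyltransferase gene Mettl1 at 5.17. All 5 had between 4 and 17 mock reads and between 231 and 955 stimulated reads.

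Markers of other spleen cells were read in both libraries. Over 9 listed myeloid and dendritic cell genes with a named junction, of 12 listed, the sum went from 52.3 to 32.8 RPM, with single genes on both sides. Lyz2 had 15 and 0 reads, Itgam 10 and 1 and Flt3 8 and 0, while Cybb had 5 and 19 and Cd68 10 and 11. The 9 B cell genes went from 174 to 127 RPM, and 4 erythroid genes from 7.84 to 22.4. The natural killer list, with 2 of 4 genes named, stood at 39.2 and 41.8, from Klrd1 with 38 and 20 reads and Eomes with 7 and 36. Cd8a had no named junction, and Cd8b1 had 16 and 5 reads. The part of these cells in the levels of Bcat1 and the other members was not tested.

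Bcat2, which encodes the mitochondrial aminotransferase, had fewer reads after stimulation but stood just short of the limit. It went from 70 to 41 reads (61.0 to 30.6 RPM), a ratio of 0.501 (0.332 to 0.747). The named introns lie at chr7:52825770-52844675 on the plus strand (mm9). Of its 10 junctions 9 had fewer stimulated than mock reads and 1 had the same number. The most-read junction, intron 1, had 14 and 12 reads and the highest ratio (0.733) of the 4 junctions with at least 10 reads over both libraries. Intron 9 had the lowest of these, with 8 and 4 reads (0.428). The final intron had 7 mock reads and none after stimulation.

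Of the dehydrogenase subunits, Bckdha had fewer and Dbt more reads after stimulation. Bckdha, the E1 alpha subunit that the kinase phosphorylates, was 3.64-fold lower (1.67 to 8.76), from 28 to 9 reads, with introns at chr7:26415453-26443651 on the minus strand. Introns 7 and 8 held 14 of the mock reads (9 and 5) and no stimulated read, while introns 1 to 6 had 14 mock and 9 stimulated reads. Counting only junctions seen in both libraries gave a log2 ratio of −0.51 in place of −1.86, and the gene was then neither higher nor lower. Dbt, the E2 core that carries lipoate, went the other way, from 24 to 52 reads, a ratio of 1.85 (1.12 to 3.14) below the 2-fold limit. It passed that limit with a log2 ratio of 1.13 under TMM scaling, and of 1.12 by the median of ratios. Its interval held 1 when widened by the spread between junctions of a gene (0.900 to 4.05), and also from junctions seen in both libraries (0.792 to 2.36, log2 ratio 0.44).

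All 10 Dbt introns (chr3:116216110-116250950, plus strand) were read in the stimulated library and 5 in the mock library. Introns 4 to 6 had 17 mock and 30 stimulated reads, and the rest 7 and 22. Its most-read junction, intron 5, had 7 and 13 reads (1.59, 0.589 to 4.70). Among junctions with at least 10 reads that was the highest ratio, and intron 10, with 5 and 5 reads, had the lowest (0.855). Bckdhb, the E1 beta subunit (chr9:83962799-84017575, plus strand), had 1 mock and 2 stimulated reads, both under the 3-read floor, so no ratio is given. These reads fell on introns 9 and 10 only. The other 8 introns had no named junction in either library, and reads there on an unnamed junction would be missed. Over the 3 subunits the sums were 53 and 63 reads, a ratio of 1.02 (0.694 to 1.49).

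Bckdk, the kinase that holds the dehydrogenase inactive, was the most read gene of the set in resting cells and was 2.36-fold lower after stimulation (1.70 to 3.30), from 115 to 57 reads. Its introns span chr7:135047684-135051680 on the plus strand. Of 11 junctions 10 had fewer stimulated reads, and the exception had 0 and 1. Introns 2 and 9 shared the highest count, with 26 and 15 reads (0.493, 0.243 to 0.967) and with 29 and 12 (0.354, 0.165 to 0.715). Intron 3 had the lowest ratio among the 7 junctions with at least 10 reads, 0.285 from 12 and 4 reads, and intron 7 the highest, 0.570 from 9 and 6. Under TMM scaling the log2 ratio was −0.998 in place of −1.24, which put the gene just short of the 2-fold limit. Ppm1k, the phosphatase that reverses the kinase, had 8 mock reads and 1 stimulated read, below the minimum.

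**Figure D3:**
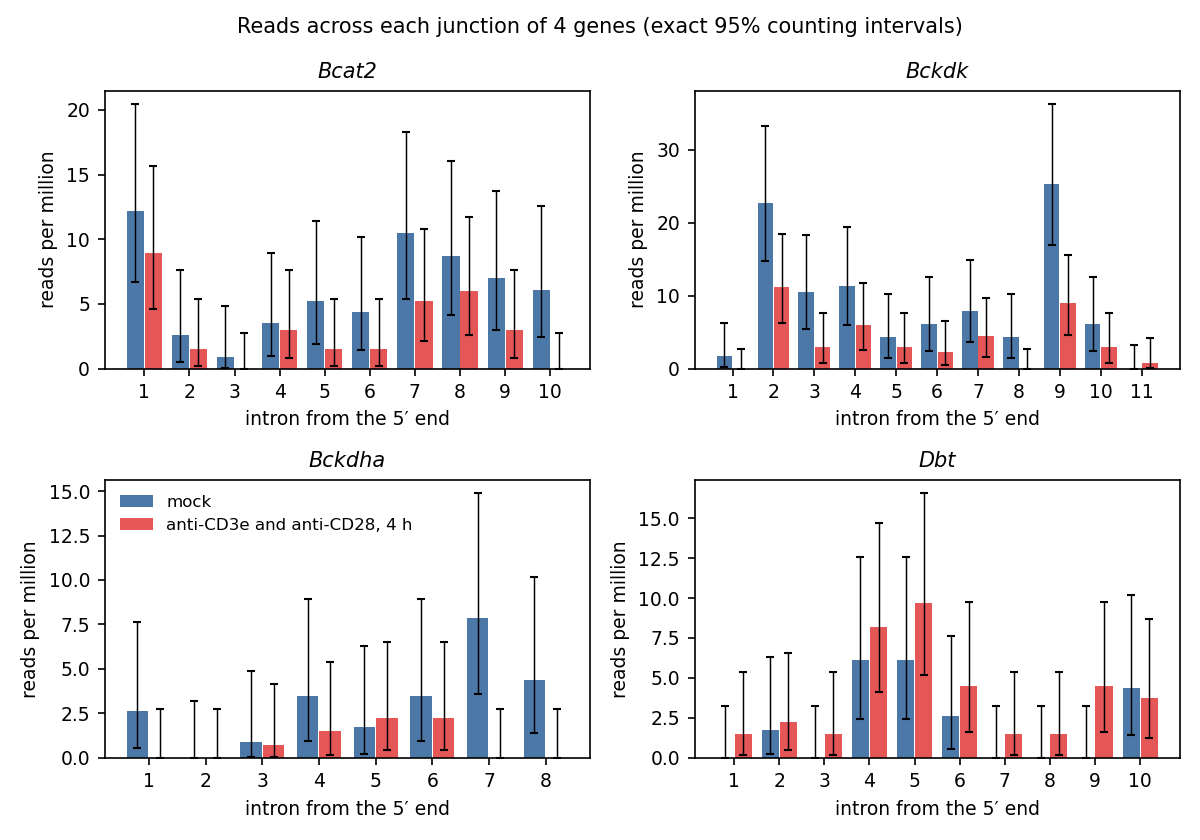
Reads per 1000000 junction reads (RPM) across each intron, numbered from the 5′ end, of Bcat2, Bckdk, Bckdha and Dbt in the mock library (blue) and the stimulated library (red), with exact 95% Poisson intervals; an intron with no bar had no read. Mock bars stand above stimulated bars at most introns of Bcat2 and Bckdk, stimulated bars at most introns of Dbt, and Bckdha has none after stimulation at introns 7 and 8.

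Both subunits of methylcrotonyl-CoA carboxylase had fewer reads in the stimulated library, on thin counts. Mccc1, the biotin-carrying subunit (chr3:35859052-35899402, minus strand), went from 31 to 20 reads, a ratio of 0.552 (0.298 to 0.9995), and was neither higher nor lower. Its only junction with at least 10 reads, intron 1, had 5 in each library. Mccc2, the carboxyltransferase subunit (chr13:100718912-100770204, minus strand), went from 15 to 5 reads and was 3.51-fold lower (1.21 to 12.3). That call rested on exactly the 20-read minimum, and it was lost when the interval was widened in the same way as for Dbt (0.0389 to 1.32 for the stimulated over the mock level). None of its 9 junctions had more stimulated than mock reads, and 6 had mock reads alone. The 2 subunits together had 46 and 25 reads, a ratio of 0.465 (0.274 to 0.773).

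**Figure D4:**
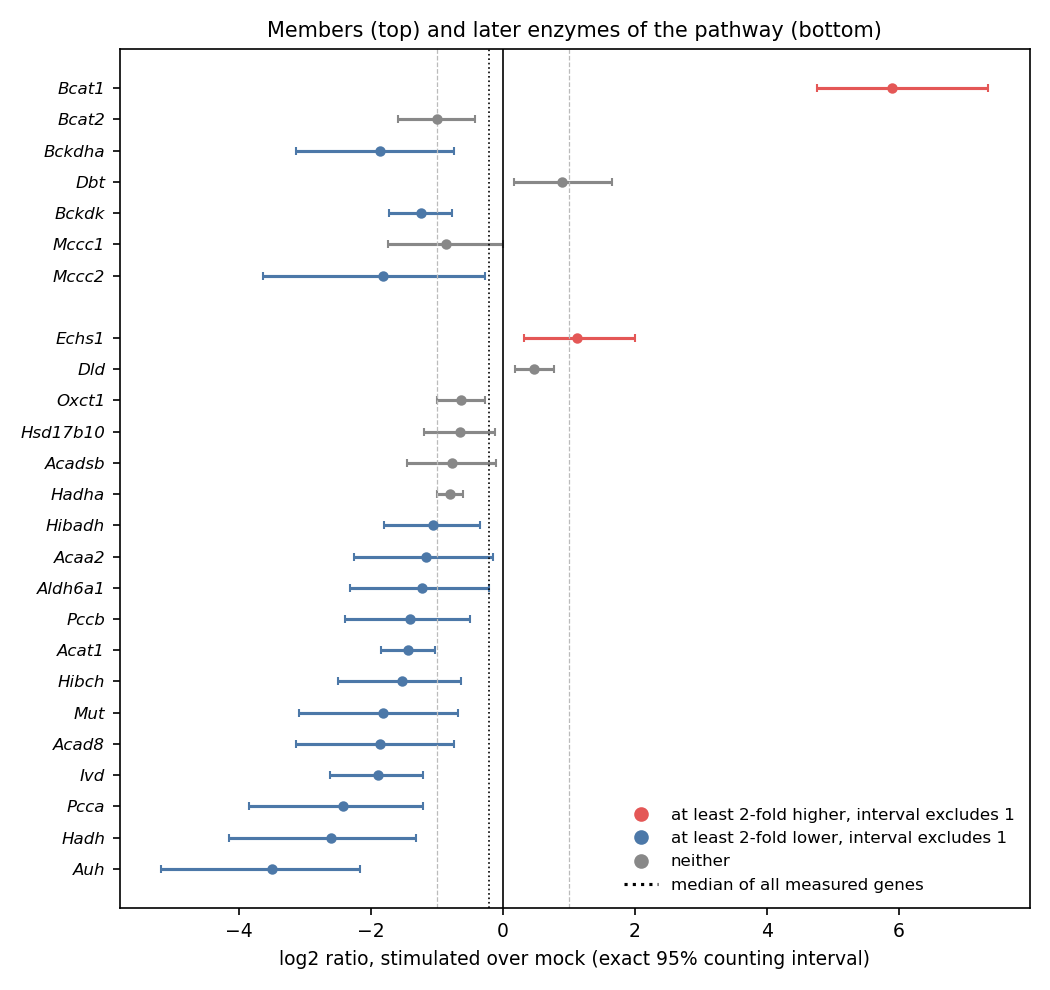
Log2 ratio of stimulated over mock level with exact 95% counting intervals for the 7 measured members (top) and 18 of the 19 measured genes of the later steps (bottom). Red marks genes at least 2-fold higher with an interval without 1, blue those lower by the same rule, grey neither, the dashed lines a 2-fold difference, and the dotted line the median of all measured genes, −0.21. Bcat1 at 5.90 stands alone on the right, and most later enzymes lie left of the dotted line.

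Among the enzymes after the members more genes were lower than higher. Of 26 listed genes of the later steps and their helpers 19 were measured, 12 were lower and 1 was higher, against 25.1% and 17.1% of all measured genes. Nothing is read from these counts either, because the list was chosen with earlier results of these data known. The median log2 ratio of the list was −1.23, beside −0.21 over all genes. Under TMM scaling it was −0.99 with 9 lower, beside 0.03 and 1409 of 7202 lower over all genes. Junctions seen in both libraries left 7 of 17 measured genes lower, and a minimum of 50 reads left 5 of 12, with a median of −0.78. Over all genes these settings left 1385 and 1369 lower, in place of 1807. How many genes were measured over all genes under these settings, and their median, is not given. No general share therefore stands beside these list counts. On the leucine branch Ivd, isovaleryl-CoA dehydrogenase, was 3.70-fold lower (2.31 to 6.13), from 76 to 24 reads. Auh, the hydratase after methylcrotonyl-CoA carboxylase, was 11.2-fold lower (4.49 to 36.1), from 48 to 5 reads, the lowest of the list. Oxct1, which uses ketone bodies, had 148 and 112 reads (0.647, 0.502 to 0.833), short of the 2-fold limit.

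On the valine branch Acad8, Hibch, Hibadh and Aldh6a1 were all lower, with ratios of 0.275, 0.347, 0.481 and 0.428. Acadsb, which serves isoleucine, had 48 and 33 reads (0.588, 0.366 to 0.935), short of the 2-fold limit. Propionate handling was lower at each measured step: Pcca, the biotin subunit of propionyl-CoA carboxylase, was 5.34-fold lower (2.32 to 14.3), Pccb 2.65-fold and Mut, methylmalonyl-CoA mutase, 3.51-fold. Mcee, Mmaa, Mmab and Ehhadh were below the minimum, with 9 and 1, 6 and 2, 3 and 10, and 10 and 4 reads. Abat and Hadhb had no named junction.

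Enzymes shared with fatty acid oxidation and other routes went both ways. Acat1, which makes and splits acetoacetyl-CoA, went from 171 to 74 reads (0.370), Acaa2 from 25 to 13 (0.445) and Hadh from 31 to 6 (0.166). Hadha, the most read gene of the list with 536 and 361 reads, stood at 0.576, and Hsd17b10 at 0.635 with 70 and 52. Echs1, the short-chain hydratase, was the only higher gene, from 18 to 46 reads (2.19, 1.24 to 4.01). That call was lost with the widened interval, without the most-read junction, and from junctions seen in both libraries, each of which left 0 higher genes in the list. Dld, the E3 subunit that the branched-chain dehydrogenase shares with its sister complexes, had 157 and 256 reads (1.39, 1.14 to 1.71), also short of 2-fold.

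In the list of the sister complexes for pyruvate and 2-oxoglutarate, the lower genes were kinases. Of 10 measured genes none were higher and 3 were lower: the pyruvate dehydrogenase kinases Pdk1 (248 to 38 reads, 7.63-fold lower), Pdk2 (95 to 9 reads, 12.3-fold) and Pdk3 (60 to 34 reads, 2.06-fold). Under TMM scaling 2 were lower. The subunit genes ran from Pdha1 at 0.734 to Pdhx at 1.68, which was the highest of the measured genes, and Ogdh, the most read, had 680 and 687 reads (0.864). The list's median log2 ratio was −0.33, and −0.09 under TMM, beside −0.21 and 0.03 over all measured genes. Over all measured genes 17.1% were higher and 25.1% lower, so 3 of 10 lower is near the general share.

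For biotin carboxylases and biotin handling, 5 genes were measured, 2 of them higher and 3 lower, and the median log2 ratio was −1.41. Slc5a6, the vitamin transporter that takes up biotin, went from 0 to 29 reads. Set against 3 mock reads it was 8.27-fold higher, and its exact 95% interval began at 6.31. Acaca, the carboxylase of fatty acid synthesis, was 4.99-fold higher (2.08 to 14.5). Hlcs, which attaches biotin to all these carboxylases, was 8.77-fold lower (4.18 to 21.2), from 60 to 8 reads. Hlcs had the most reads of this list, whose other lower genes were Pcca and Pccb, already counted among the later steps.

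Other aminotransferases that trade amino groups with glutamate were higher in part. Psat1, the aminotransferase of serine synthesis, was 21.8-fold higher (15.2 to 32.3), from 31 to 790 reads, the highest ratio and the most reads of its list. Gpt2, the mitochondrial alanine enzyme, was 11.1-fold higher (4.09 to 42.3) and Got1, the cytosolic aspartate enzyme, 4.85-fold (3.60 to 6.65). Kyat1 had the lowest ratio of the measured genes, 0.223 from 23 and 6 reads, and Gpt, below the minimum, had 12 and 1 reads. Of 7 measured genes 3 were higher and 1 lower (17.1% and 25.1% of all measured genes), and the median log2 ratio was 0.74.

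Uptake, sensing and charging of the branched-chain amino acids also had genes on both sides. In the transport and leucine sensing list 15 genes were measured, of which 4 were higher (6 under TMM) and 5 lower. The general shares were 17.1% higher and 25.1% lower. The list's median log2 ratio was 0.22, beside −0.21 over all measured genes. Sesn2, a leucine sensor, led with 3 and 105 reads (29.9, 9.97 to 148), while its relatives Sesn1 and Sesn3 were 5.66-fold and 3.77-fold lower. Slc7a5 and Slc3a2, the chains of the large neutral amino acid exchanger, had 49 and 1362 and 300 and 1779 reads, the latter the most of the list. Slc43a2, another carrier of large neutral amino acids, was 5.26-fold lower, and Rragb, a Rag GTPase, had the lowest ratio of the measured genes, 0.151 from 17 and 3 reads. The mitochondrial carrier gene Slc25a44 had 8 and 12 reads.

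Of 6 synthetase genes 3 were higher and 1 lower, against 17.1% and 25.1% of all measured genes. The cytosolic enzymes Iars, Lars and Vars had ratios of 6.70, 5.32 and 3.44, and Iars, from 184 to 1442 reads, had the most reads. The mitochondrial enzymes had ratios of 0.428 (Lars2, lower), 0.532 (Iars2) and 0.932 (Vars2), and under TMM scaling none of these was lower.

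**Figure D5:**
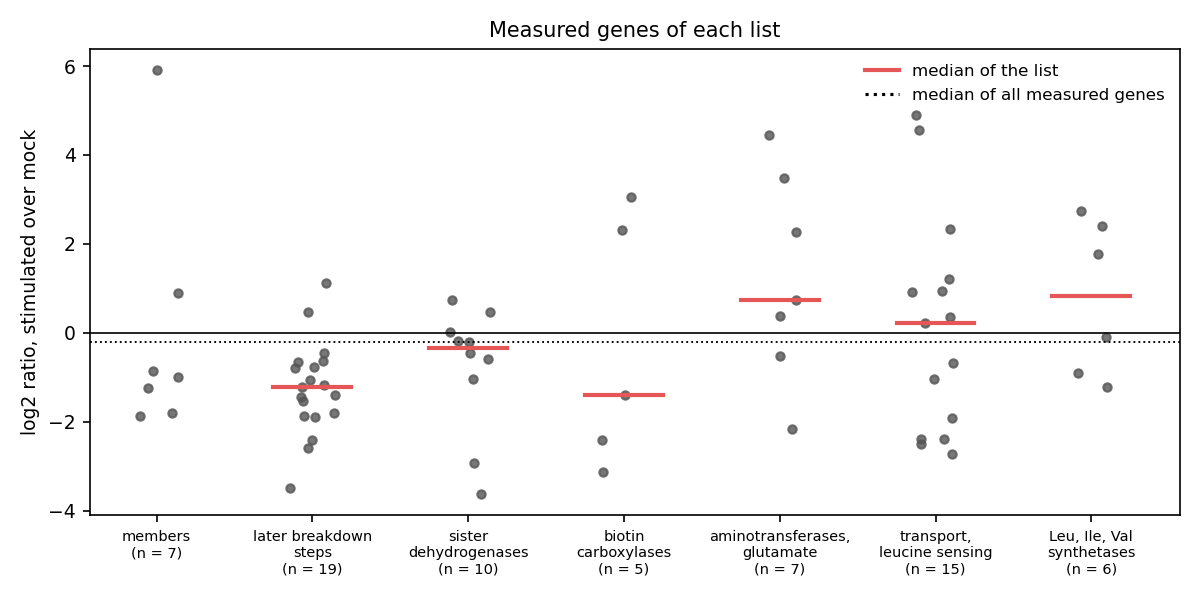
Log2 ratio of stimulated over mock level for every measured gene of the member set and of 6 related lists, with the list's median (red bar, not drawn for the members) and the median of all measured genes (dotted line). The later breakdown steps centre on −1.23, and the synthetase list splits into 3 cytosolic genes at 1.78 or more and 3 mitochondrial genes below 0.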

How the data were processed

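The deposited files list splice junctions with the count of reads spanning each, and these counts were not normalized by the authors. TopHat, Cufflinks and the build mm9 are named per the submitters' processing notes. For versions, settings and filters on junctions the record is silent (not given in the sources used here), and a junction the aligner missed in 1 library lowers its gene there. The annotation was GENCODE M21 on GRCm38, and no coordinate was converted. A junction was given to a gene when its chromosome, strand and intron length matched an annotated intron and its distance to at least 1 other such junction matched too. Of 124183 junctions, 95446 (76.9%) were named, 310 fitted several genes and were left out, and 987 that fitted 1 known gene and a predicted model were given to the known gene. Named junctions held 95.7% of mock and 95.9% of stimulated reads, and all positions are given from 1.

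Levels were summed per gene over the library's junction reads (Python 3.11.15, SciPy 1.17.1), and TMM factors came from edgeR 4.0.16. Naming, calls and intervals were tested on simulated data with counting error alone, and with annotated introns moved by a common offset within each gene. These data hold more spread, 2.02 times the counting variance between junctions of a gene, and differences between builds were not simulated. The level per intron divides by the introns of the annotated transcript holding most of the gene's reads. Members and lists were chosen with earlier results of these data known. Named in the text were all members, every Bcat1 junction, extreme and most-read junctions of the others, the measured genes of the later-steps list (1 of them counted but not reported here), the extreme and most-read genes of the other lists, the 5 genes nearest to Bcat1, and Myc. Other list genes were added after their values were seen. Lists share Dld, Pcca, Pccb and Abat. Dbt was not found among the promoter windows. Insert sizes were 211.79 bp (mock) and 199.014 bp (stimulated), per the labels' protocols.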

Additional observations from a re-analysis of the deposited data

Results flagged for a closer look

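Junctions that matched no annotated intron were not part of the counts above. Inside Bcat1 they held 5 stimulated reads and no mock read. Junctions of 5624 bp and 17191 bp, with 2 reads each, joined splice sites of named introns and left out exons of 141 and 164 bases, of which only the former is a multiple of 3. The last, with 1 read, used the start of the intron after the 164 base exon and a different end, which made an intron of 261 bp. Beside the 419 reads of the named junctions these are few, and at this depth their mock level could not be told from 0. Inside Bcat2, Bckdha, Dbt and Bckdk such junctions had 5, 1, 1 and 2 mock reads and no stimulated read.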

How the results depend on the processing

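No paired analysis was possible because each group has 1 library. Of 164 recomputed values 154 stayed inside the main value's limits, and no called direction reversed. That tally is of values and not of calls. Under TMM Dbt became higher and Bckdk neither, and both were counted as inside. The widened interval leaves each member's ratio unchanged by construction. Bcat1 was higher under all 9 alternatives (log2 ratio 4.77 to 6.27). TMM moved every log2 ratio up by 0.24 and the median of ratios by 0.23, so called genes were 40.5% higher as scaled here (1231 and 1807) and 52.6% under TMM (1561 and 1409). Members higher and lower were 1 and 3 as reported, 2 and 2 under TMM, and 1 and 1 from the most-read junction alone, where 4 members had too few reads. Bcat2 and Mccc1 were lower without their most-read junction (−1.17 and −1.02). Counting only junctions seen in both libraries gave Bckdha −0.51. A fold of at least 4 left 480 genes higher and 632 lower, by construction. The most-read junction alone gave medians of −0.74 for the sister dehydrogenases, 1.07 for transport and sensing, and 2.35 for the synthetases. For the aminotransferases the median was 1.34 without that junction, 1.40 from junctions seen in both libraries and 1.51 with at least 50 reads, and for transport and sensing 0.92 with at least 50 reads. In these fewer genes were tested, except for the sister dehydrogenases, where the cause was not tested. Depth limits Bckdhb, Mccc2 and single junctions most.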
